A study of Rattus norvegicus with 48 samples.

Results

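Expression of 10 signalling genes of the early inflammatory response was followed in rat liver after ischemia and reperfusion: the chemokines Cxcl1, Cxcl2, Cxcl10, Ccl2, Ccl3 and Ccl4 and the cytokines Il6, Il1b, Tnf and Il10. They were picked by gene name, and each was measured by a single probe set (a group of array probes for 1 transcript) that carries only that symbol, so that 10 of the 14506 genes with a symbol are described. Liver biopsies of 48 male Wistar rats were hybridised to Affymetrix arrays, 1 array for each animal, and the values are log2 expression values, on which a difference of 1 is a doubling. Precision depends on how many arrays each group has and on the variation between animals, which differs between genes.

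The IPC group (10 rats) had ischemic preconditioning, which was 10 min of hepatic ischemia and 10 min of reperfusion ahead of the main insult. The IPO group (10 rats) had ischemic postconditioning, in which the return of blood flow was interrupted at once by 3 short cycles, with flow open for 30 sec and then closed for 30 sec. Both manoeuvres were applied in the IPC+IPO group (10 rats), and neither in the IRI group (10 rats). All 4 of these groups had 30 min of ischemia of the whole liver and were sampled after 30 min of reperfusion. The Sham group (8 rats) had no liver ischemia. All animals were anaesthetised with Hypnorm and midazolam and underwent a midline laparotomy, and the biopsy came from the right lobe, so that the Sham livers share anaesthesia and surgery with the others. Whole tissue was measured: fewer cells of a type and less RNA per cell cannot be told apart.

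Chemokines are small secreted proteins that guide leukocytes along a gradient to a tissue. Cxcl1 and Cxcl2 attract neutrophils through Cxcr2, Cxcl10 attracts activated T cells through Cxcr3, Ccl2 attracts monocytes through Ccr2, and Ccl3 and Ccl4 attract monocytes, macrophages and T cells. Tnf and Il1b are alarm cytokines that Kupffer cells, the resident macrophages of the liver, release early after reperfusion, Il6 drives the acute phase response of hepatocytes, and Il10 restrains inflammatory gene expression. Many of these genes are immediate targets of the transcription factor NF-kB.

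The upstream sequences of Cxcl1, Cxcl2, Cxcl10 and Il6 are shown because these 4 held a match to the NF-kB consensus (the standard 10-base motif, searched on both strands), and because the levels of the first 3 were correlated across animals. RefSeq promoters (build GRCr8) were available for 6 of the 10 genes, and the 250 bases before the annotated start were searched. The consensus occurred in 6.33% of 33469 promoters of that length. Each sequence runs 5′ to 3′ on the strand of the gene and ends at the base before the start. Capitals mark the matches, and matches that overlap are joined into 1 run. The sequences lie at chr14:17479322-17479415 (minus strand) for Cxcl1, chr14:17467256-17467339 (minus strand) for Cxcl2, chr14:15988816-15989065 (plus strand) for Cxcl10 and chr4:5894576-5894747 (minus strand) for Il6.
Cxcl1: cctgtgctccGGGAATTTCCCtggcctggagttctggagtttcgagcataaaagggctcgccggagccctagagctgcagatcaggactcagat
Cxcl2: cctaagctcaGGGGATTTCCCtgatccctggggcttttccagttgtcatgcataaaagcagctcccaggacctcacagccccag
Cxcl10: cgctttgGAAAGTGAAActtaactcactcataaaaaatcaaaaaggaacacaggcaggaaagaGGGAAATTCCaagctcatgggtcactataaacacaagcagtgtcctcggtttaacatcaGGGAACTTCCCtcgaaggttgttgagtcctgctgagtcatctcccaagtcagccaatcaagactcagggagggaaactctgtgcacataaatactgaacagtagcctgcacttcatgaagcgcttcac
Il6: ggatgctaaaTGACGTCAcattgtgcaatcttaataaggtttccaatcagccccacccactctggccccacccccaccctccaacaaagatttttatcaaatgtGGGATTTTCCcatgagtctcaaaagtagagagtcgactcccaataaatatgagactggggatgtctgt
The match in Cxcl1 lay 84 to 74 bases before the start and the match in Cxcl2 lay 74 to 64 bases before it, each made of 2 overlapping hits. Cxcl10 held the consensus at 187 to 178 and again at 128 to 118 bases before the start, and it also held the interferon response motif (GAAA, any 2 bases, GAAA) at 243 to 234, which 3.41% of all promoters held. Il6 held the consensus at 68 to 59 bases before the start and the cyclic AMP response motif TGACGTCA at 162 to 155, which 1.59% of all promoters held. No motif of the 3 was found in these windows of Il1b and Tnf. A match is a description of the letters and not evidence of a bound site.

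The tissue label was checked against liver genes: albumin (Alb) lay between 12.8 and 13.39 in all 48 arrays, and the mean of 10 hepatocyte markers lay between 11.43 and 12.19. The arrays differed in the standard deviation of their log2 values, called array spread here, which lay between 1.5 and 1.97 and averaged 1.85 ± 0.083 in IPC, 1.91 ± 0.065 in IPO, 1.86 ± 0.153 in IPC+IPO, 1.77 ± 0.111 in IRI and 1.72 ± 0.134 in Sham (SD). Animal 18 of the IPC group carried transcripts of the exocrine pancreas, which a liver biopsy should lack. All 13 measured genes of a list of 14 pancreatic enzymes and granule proteins were highest in its array, with a mean of 9.64 against a range of 4.87 to 5.64 in the other 47 arrays. Trypsinogen (Prss1) was 10.28 there and at most 5.41 elsewhere, and the amylase Amy2a3 was 11.1 there and at most 6.61 elsewhere. Animal 7 of the IRI group had the lowest mean correlation with the other arrays, 0.888. Group differences that rest on these arrays are given with and without them, and the part of the pancreatic RNA in any of the results was not tested.

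Against Sham livers, Cxcl1 was higher in all 3 groups with an intervention. Cxcl10 and Il10 were also higher in IPC, and Ccl3, Ccl4 and Il10 were also higher in IPO. The counts at an adjusted p under 0.05 (limma, Benjamini-Hochberg over all genes, as for every adjusted p of a difference here) were 3 of 10 in IPC against Sham, where 6.58% of all genes passed, 4 of 10 in IPO against Sham, where 23.2% passed, and 1 of 10 in IPC+IPO against Sham, where 3.62% passed. All of these were higher than in Sham, as were 5.6%, 15.4% and 3.05% of all genes in these comparisons in that order. In IRI against Sham 0 of 10 passed, where 0.241% of all genes passed, and 2 of the 10 had an unadjusted p under 0.05 where 11.5% of all genes did.

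Against IRI livers, Ccl3 in IPO was the single difference that passed. The count was 1 of 10 in IPO against IRI, where 22.8% of all genes passed and 12.4% were higher. In IPC against IRI 0 of 10 passed (0.0276% of all genes) with 3 at an unadjusted p under 0.05 (19.3% of all genes), and in IPC+IPO against IRI 0 of 10 passed (0% of all genes) with 0 at an unadjusted p under 0.05 (21.5% of all genes). IRI is the shared control of these 3 comparisons and Sham of the other 4, so that they are not independent of each other.

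**Figure D1:**
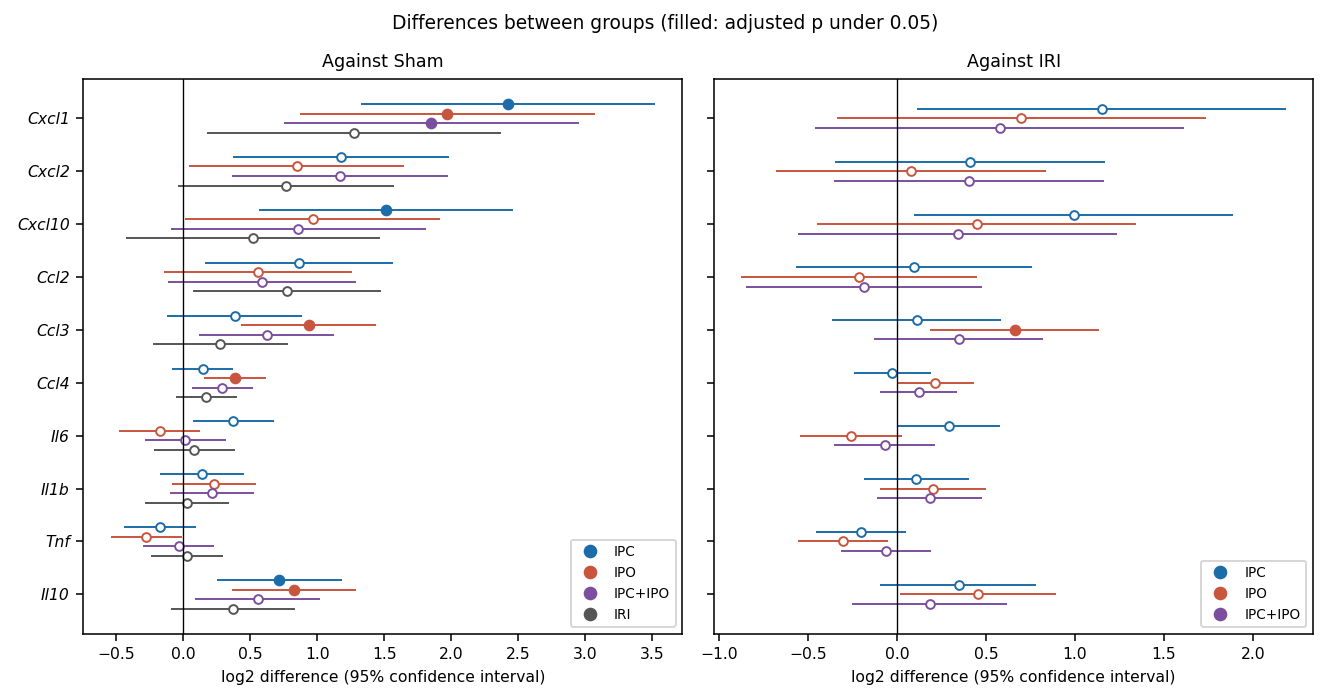
Log2 differences (horizontal axis) with 95% confidence intervals for the 10 genes, against Sham on the left and against IRI on the right; filled points passed an adjusted p of 0.05. Cxcl1 lies farthest to the right in the left panel for all 4 groups, and Ccl3 in IPO is the single filled point in the right panel.

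Cxcl1 (probe set 10775900) was the brightest of the 10, with a mean of 8.29 that exceeded or equalled 88.7% of all genes. Its values lay between 7.02 and 11.42 (median 8.94) in IPC, between 7.24 and 10.51 (median 8.35) in IPO and between 6.76 and 10.44 (median 8.27) in IPC+IPO. They lay between 6.31 and 9.71 (median 7.76) in IRI and between 6.22 and 8.08 (median 6.53) in Sham. The ranges of all groups overlapped, and 7 IPC, 6 IPO, 6 IPC+IPO and 4 IRI animals exceeded every Sham animal. Cxcl1 was 5.37-fold higher in IPC than in Sham (95% confidence interval 2.5 to 11.5, adjusted p = 0.0071), 3.92-fold higher in IPO (1.83 to 8.41, adjusted p = 0.0122) and 3.61-fold higher in IPC+IPO (1.69 to 7.74, adjusted p = 0.0443). In IRI it was 2.42-fold the Sham level (1.13 to 5.19), which did not pass (adjusted p = 0.34). The calls in IPC and IPO held when any 1 of the 48 arrays was left out, with adjusted p up to 0.0214 and 0.0284, whereas the call in IPC+IPO was lost for 12 of 48 arrays (IPC+IPO 31, 32, 33, 35, 36 and 40 and Sham 41, 42, 44, 45, 46 and 47, adjusted p up to 0.0997).

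IPC livers had the highest mean of Cxcl1, but against IRI livers the difference did not pass. The level was 2.22-fold that of IRI in IPC (1.08 to 4.55, adjusted p = 0.228), 1.62-fold in IPO (0.79 to 3.33, adjusted p = 0.274) and 1.49-fold in IPC+IPO (0.727 to 3.06, adjusted p = 0.49). These intervals leave room for more than a 3-fold increase as well as, in IPO and IPC+IPO, for a decrease. With array spread as a covariate the difference from Sham was 1.88 ± 0.62 (SE, log2) in IPO, with adjusted p = 0.282, and 1.78 ± 0.59 in IPC+IPO, with adjusted p = 0.141, so that the sizes stayed close while the calls were lost. In that fit 0 of 14506 genes passed in IPO against Sham.

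Cxcl2 (probe set 10775896), which lies near Cxcl1 on chromosome 14 and is also a neutrophil attractant, was dimmer and passed in none of the 7 comparisons. It lay between 4.09 and 7.52 (median 5.43) in IPC, between 4.07 and 6.21 (median 5.6) in IPO and between 4.44 and 7.6 (median 5.54) in IPC+IPO. It lay between 4.04 and 7.15 (median 5.24) in IRI and between 4 and 5.1 (median 4.67) in Sham. Each of the 4 ischemic groups had 6 or 7 animals above every Sham animal and others within the Sham range. The log2 difference from Sham was 1.18 ± 0.40 (SE) in IPC (adjusted p = 0.0641), 0.85 ± 0.40 in IPO (adjusted p = 0.106), 1.17 ± 0.40 in IPC+IPO (adjusted p = 0.0766) and 0.77 ± 0.40 in IRI (adjusted p = 0.465). The difference in IPC passed when animal 12 or 17 of IPC, animal 38 of IPC+IPO or animal 48 of Sham was left out (adjusted p 0.0328 to 0.0432), and that in IPC+IPO passed without animal 37 of IPC+IPO (adjusted p = 0.0279) or animal 48 of Sham (adjusted p = 0.0424).

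Cxcl10 (probe set 10771655), an interferon-inducible chemokine, varied most in IPC. It lay between 5.64 and 10.48 (median 6.64) in IPC, between 6.27 and 8.25 (median 6.79) in IPO and between 5.43 and 9.11 (median 6.49) in IPC+IPO. It lay between 5.61 and 8.18 (median 6.19) in IRI and between 5.5 and 6.46 (median 5.9) in Sham. In IPC, animals 15, 19 and 18 stood at 10.48, 9.92 and 9.46, and the other 7 at 6.72 or less. The IPC mean was 2.85-fold that of Sham (1.48 to 5.51, adjusted p = 0.0447), and the call was lost for 11 of 48 arrays left out (IPC 14, 15, 16, 18 and 19 and Sham 41, 42, 44, 45, 46 and 47, adjusted p up to 0.102). Without animal 18 the log2 difference was 1.29 ± 0.47 (adjusted p = 0.0981), against 1.51 ± 0.47 with it, and with array spread as a covariate it was 1.42 (adjusted p = 0.126).

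**Figure D2:**
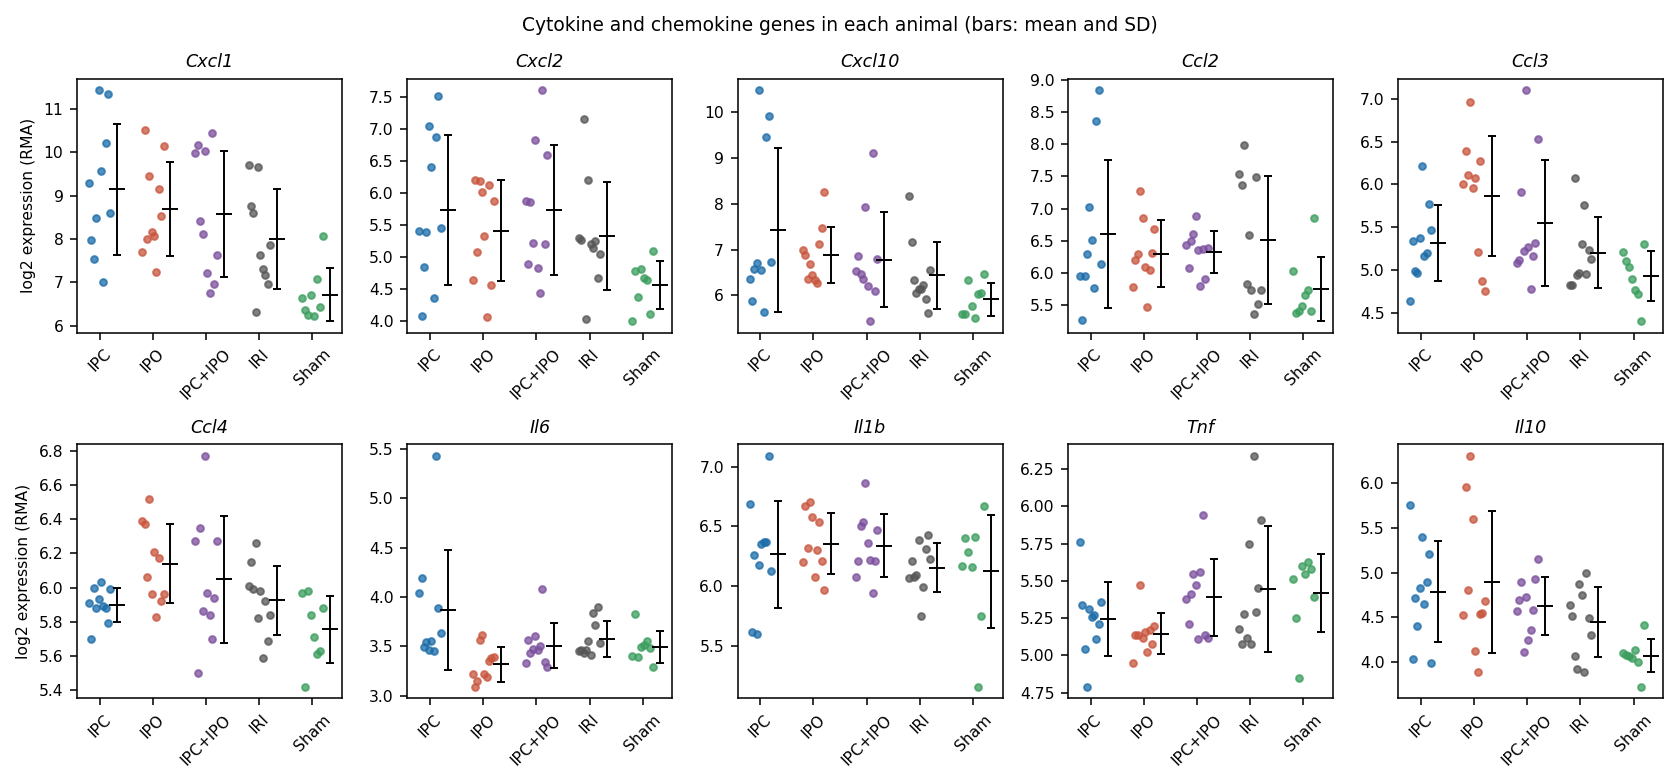
Log2 expression (vertical axis, a separate scale for each gene) of the 10 genes in each of the 48 animals, by group, with bars for the mean and SD. The groups overlap for every gene; the 3 high IPC animals of Cxcl10, the single high IPC animal of Il6 and the narrow Sham range of Il10 stand out.

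Ccl2 (probe set 10736697), the monocyte attractant, passed in no comparison. It lay between 5.26 and 8.84 (median 6.22) in IPC, between 5.47 and 7.28 (median 6.24) in IPO and between 5.8 and 6.88 (median 6.38) in IPC+IPO. It lay between 5.36 and 7.99 (median 6.21) in IRI and between 5.38 and 6.85 (median 5.57) in Sham. The 4 ischemic groups thus had nearly equal medians. The wide range of IPC came from animals 15, 18 and 19, at 7.02, 8.36 and 8.84. In IRI, animals 1, 2, 3, 5 and 8 stood between 6.59 and 7.99 and the others between 5.36 and 5.83. The IRI median thus fell in the gap between these sets. Its log2 difference from Sham was 0.87 ± 0.35 in IPC (adjusted p = 0.119) and 0.77 ± 0.35 in IRI (adjusted p = 0.382). Without Sham animal 48, the highest of that group for Ccl2 at 6.85, the difference in IPC was 1.02 and passed (adjusted p = 0.0478).

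Ccl3 (probe set 10745677), a macrophage inflammatory protein, was highest in IPO and was the single gene of the 10 that separated an intervention from IRI. It lay between 4.76 and 6.96 (median 6.04) in IPO and between 4.83 and 6.08 (median 5.05) in IRI. The groups overlapped: 5 IPO animals exceeded every IRI animal and 1 lay below them all. The IPO mean was 1.58-fold that of IRI (1.14 to 2.2, adjusted p = 0.0409). The call was lost for 12 of 48 arrays left out, which were IRI 2, 5, 7, 8, 9 and 10 and IPO 21, 22, 23, 24, 26 and 28 (adjusted p 0.0534 to 0.0743), and with array spread as a covariate the difference was 0.47 with adjusted p = 0.526, against 0.66 without.

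Against Sham, where Ccl3 lay between 4.4 and 5.3 (median 4.96), it was 1.91-fold higher in IPO (1.35 to 2.71, adjusted p = 0.0101), and this held for each array left out (adjusted p up to 0.027) but not with array spread as a covariate (log2 difference 0.68, adjusted p = 0.374, against 0.94 without). In IPC it lay between 4.64 and 6.22 (median 5.27), and in IPC+IPO between 4.78 and 7.1 (median 5.24). Most animals of these groups lay near the Sham range. The log2 differences from Sham, 0.38 ± 0.25 in IPC (adjusted p = 0.355) and 0.62 ± 0.25 in IPC+IPO (adjusted p = 0.125), did not pass. The direct difference of IPO from IPC was 0.55 ± 0.24 (unadjusted p = 0.024, adjusted p = 0.835).

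Ccl4 (probe set 10736863), a close relative of Ccl3, spanned a narrower range. It lay between 5.83 and 6.52 (median 6.11) in IPO, between 5.7 and 6.03 (median 5.9) in IPC, between 5.5 and 6.77 (median 5.95) in IPC+IPO, between 5.59 and 6.26 (median 5.95) in IRI and between 5.42 and 5.98 (median 5.77) in Sham. All 10 IPO animals lay above the Sham median and 6 above every Sham animal. The IPO mean was 1.31-fold that of Sham (1.11 to 1.53, adjusted p = 0.0166). Ccl4 followed array spread across animals (Pearson r = 0.5, adjusted permutation p = 0.0096, Spearman rho = 0.547, adjusted permutation p = 0.000633, over 48 animals with group means removed). Without the 2 farthest animals r was 0.566, and within groups it lay between 0.153 (IPO) and 0.77 (IRI). With spread as a covariate the difference of IPO from Sham was 0.19 (adjusted p = 0.574). In IPC+IPO against Sham its log2 difference of 0.29 ± 0.11 (adjusted p = 0.114) passed without animal 38 of IPC+IPO (0.33 ± 0.11, adjusted p = 0.0421). Probes of Ccl3 and Ccl4, or of Cxcl1 and Cxcl2, could bind the transcript of the relative, which was not tested.

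Il6 (probe set 10859799) gave a dim signal in all groups, with a mean of 3.55 that exceeded or equalled 6.3% of all genes. It lay between 3.45 and 5.43 (median 3.59) in IPC, between 3.09 and 3.61 (median 3.28) in IPO and between 3.29 and 4.08 (median 3.46) in IPC+IPO. It lay between 3.41 and 3.9 (median 3.5) in IRI and between 3.29 and 3.83 (median 3.48) in Sham. IPO animals were the lowest: 8 of 10 lay below every IRI animal, 8 of 10 below every IPC animal and 5 of 10 below every Sham animal. The difference of IPO from IRI was -0.26 ± 0.14 (adjusted p = 0.146), and it passed at -0.26 ± 0.10 without IPC animal 18 (adjusted p = 0.0465), whose value enters the shared estimate of the error.

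The largest contrast of Il6 was between the interventions. IPO lay below IPC by a log2 difference of -0.55 ± 0.14 (unadjusted p = 0.000318), the fourth smallest p of all 14506 genes in that comparison, but the adjusted p was 0.835, and 0% of all genes passed. Animal 18 held the highest Il6 value, 5.43, against 4.19 in the next IPC animal. Without it the difference was -0.38 ± 0.10 (unadjusted p = 0.000382, adjusted p = 0.759). In IPC against IRI the difference was 0.29 ± 0.14 (adjusted p = 0.252) with animal 18 and 0.12 ± 0.10 (adjusted p = 0.53) without it.

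**Figure D3:**
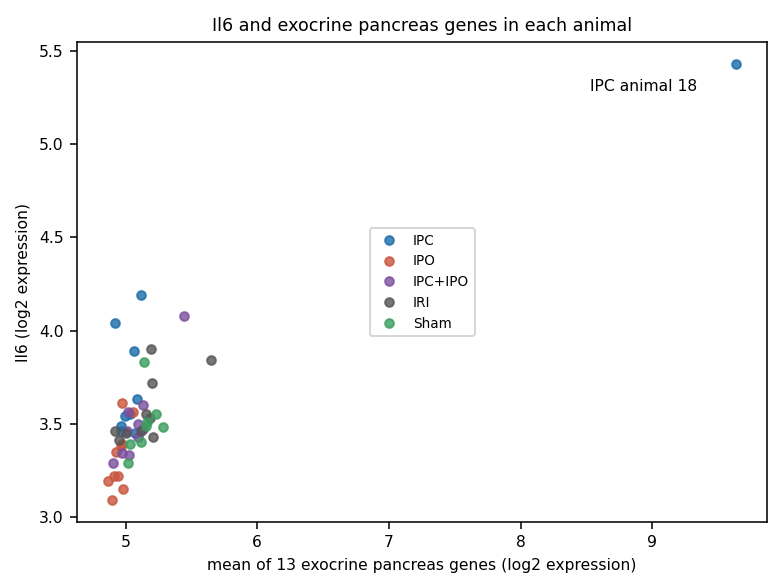
Il6 (vertical axis, log2 expression) against the mean of 13 exocrine pancreas genes (horizontal axis, log2 expression) in each of the 48 animals, coloured by group. IPC animal 18 stands alone at 9.64 and 5.43, and the other 47 animals lie between 4.87 and 5.64 on the horizontal axis.

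Il1b (probe set 10849841) passed in no comparison. It lay between 5.6 and 7.09 (median 6.31) in IPC, between 5.97 and 6.7 (median 6.31) in IPO and between 5.94 and 6.86 (median 6.29) in IPC+IPO. It lay between 5.75 and 6.43 (median 6.15) in IRI and between 5.16 and 6.67 (median 6.23) in Sham. The medians differed by less than the within-group SD of 0.34. In IRI it was 1.02-fold the Sham level (0.821 to 1.27, adjusted p = 0.975), an interval that leaves no room for a 2-fold change, and the largest difference from Sham was 1.17-fold in IPO (0.944 to 1.46, adjusted p = 0.249).

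Tnf (probe set 10828021) passed in no comparison, and its Sham median was the highest of the 5 groups. It lay between 4.79 and 5.76 (median 5.27) in IPC, between 4.95 and 5.47 (median 5.14) in IPO and between 5.11 and 5.94 (median 5.39) in IPC+IPO. It lay between 5.08 and 6.34 (median 5.29) in IRI, where animal 7 was highest, and between 4.85 and 5.63 (median 5.53) in Sham. All 10 IPO animals lay below the Sham median, although within the Sham range. Tnf in IRI was 1.02-fold the Sham level (0.847 to 1.23, adjusted p = 0.972), in IPO 0.826-fold that of Sham (0.686 to 0.993, adjusted p = 0.111) and in IPO 0.81-fold that of IRI (0.68 to 0.964, adjusted p = 0.0638). For Tnf, IPO against IRI passed without IRI animal 1, 2, 4 or 6, IPO animal 24 or IPC+IPO animal 38 (adjusted p 0.0386 to 0.0476), but without IRI animal 7 the log2 difference was -0.21 (adjusted p = 0.2), against -0.30 with it. IPO against Sham passed without Sham animal 43 (-0.36 ± 0.13, adjusted p = 0.0302).

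Across animals Tnf followed array spread inversely (Pearson r = -0.709, Spearman rho = -0.641, each with an adjusted permutation p = 0.0001 over 48 animals with group means removed). Without the 2 animals farthest from the median r was -0.627, and within groups it lay between -0.85 (IPC+IPO) and -0.279 (IPO). With spread as a covariate the log2 difference of Tnf in IPO was 0.05 from Sham (adjusted p = 0.915) and -0.06 from IRI (adjusted p = 0.895), against -0.28 and -0.30 without. Il6 followed spread in the same direction (Pearson r = -0.33, adjusted permutation p = 0.0281, Spearman rho = -0.579, adjusted permutation p = 0.0003), with r = -0.512 without the 2 farthest animals and between -0.797 (IPC+IPO) and 0.0166 (IPC) within groups. With spread as a covariate the log2 difference of Il6 in IPO was -0.13 from IRI (adjusted p = 0.828) and -0.0 from Sham (adjusted p = 0.998), against -0.26 and -0.18 without. The part of array spread in the values of both genes beyond these fits was not tested.

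Il10 (probe set 10763777), the anti-inflammatory member, had a narrow range in Sham and wide ranges elsewhere. It lay between 3.99 and 5.76 (median 4.77) in IPC, between 3.88 and 6.31 (median 4.62) in IPO and between 4.11 and 5.15 (median 4.64) in IPC+IPO. It lay between 3.89 and 5 (median 4.5) in IRI and between 3.72 and 4.41 (median 4.08) in Sham. Above every Sham animal lay 7 IPC, 8 IPO, 7 IPC+IPO and 6 IRI animals. Il10 was 1.77-fold higher in IPO than in Sham (1.28 to 2.45, adjusted p = 0.0128), which held for each array left out (adjusted p up to 0.0304) but not with array spread as a covariate (log2 difference 0.70, adjusted p = 0.324, against 0.83 without). It was 1.64-fold higher in IPC (1.19 to 2.27, adjusted p = 0.0495), a call that was lost for 33 of 48 arrays left out (adjusted p 0.0502 to 0.107), IPC animal 18 among them (adjusted p = 0.0757). In IPC+IPO it was 1.47-fold the Sham level (1.06 to 2.03, adjusted p = 0.136) and in IRI 1.29-fold (0.938 to 1.79, adjusted p = 0.562).

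The medians of the 10 log2 differences from Sham were 0.55 in IPC, 0.69 in IPO, 0.57 in IPC+IPO and 0.32 in IRI, beside medians over all genes of 0.009, 0.001, 0.014 and 0.029. Of the 10 genes, 9, 8, 9 and 10 lay above 0 in these comparisons in that order, beside 51.7%, 50.1%, 52.6% and 58.4% of all genes. Against IRI the medians were 0.2 for IPC, 0.21 for IPO and 0.18 for IPC+IPO, beside -0.015, -0.04 and -0.02 over all genes. The direct comparisons between the interventions passed for 0 of 10 genes and for 0% of all genes each. At an unadjusted p under 0.05 stood 3 of 10 in IPO against IPC (4.06% of all genes), 1 of 10 in IPC+IPO against IPC (1.62%) and 0 of 10 in IPC+IPO against IPO (3.32%). The interaction, which asks whether the effect of adding IPC to IPO equals the effect of IPC alone, passed for 0 of 10 genes and for 0% of all genes, with 1 of 10 at an unadjusted p under 0.05 (20.3% of all genes). Its smallest p was that of Tnf (log2 difference 0.44 ± 0.18, unadjusted p = 0.0153, adjusted p = 0.212), and the estimate for Cxcl1 was -1.27 ± 0.73 (adjusted p = 0.288).

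The spread between animals of 1 group was itself large for the chemokines. Ranked by within-group SD among 14506 genes, Cxcl1 was 5th with an SD of 1.22 on the log2 scale, Cxcl10 was 10th with 1.06, Cxcl2 was 30th with 0.89 and Ccl2 was 71st with 0.78, beside a median gene at 0.27. Ccl3 stood at rank 378 and Il10 at rank 636. Tnf at 0.28 and Ccl4 at 0.24 varied like the median gene.

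**Figure D4:**
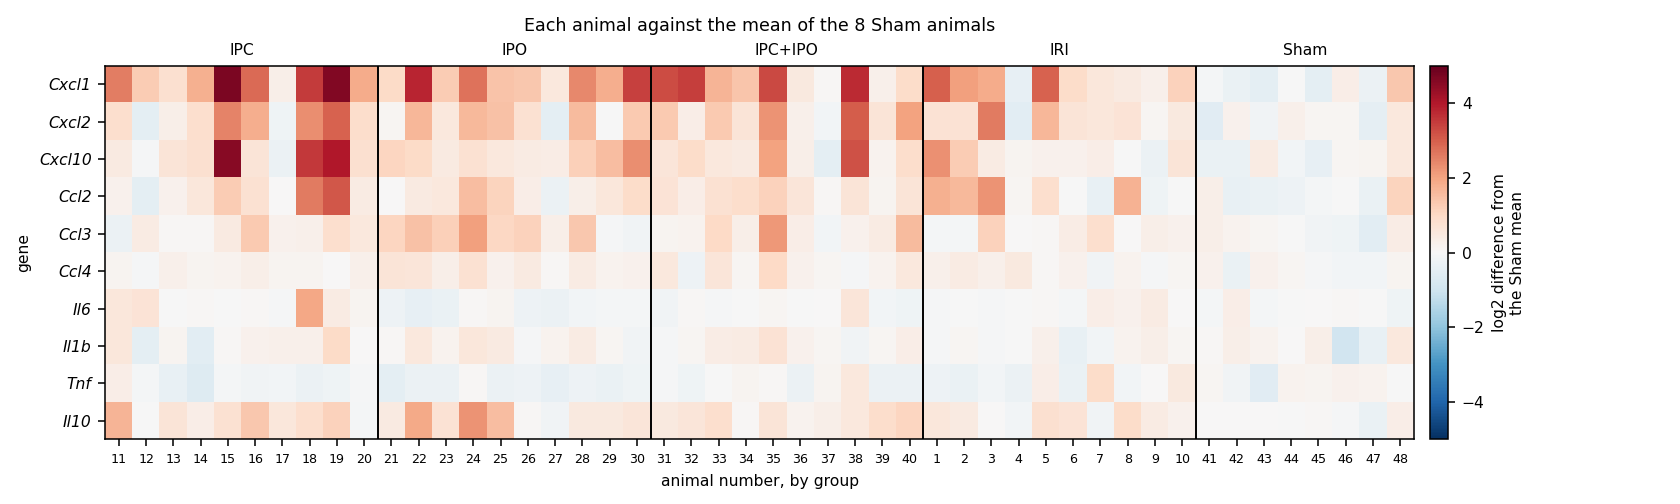
Log2 difference of each animal (columns, by group) from the mean of the 8 Sham animals for the 10 genes (rows), red for higher and blue for lower. The upper 3 rows are red together, to differing depth, in several animals, among them IPC 15, 18 and 19 and IPC+IPO 35 and 38. Others, such as IPC+IPO 32, are red mainly in the Cxcl1 row.

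The same animals tended to be high in several chemokines. IPC+IPO animal 38 had the highest value of its group for Cxcl1, Cxcl2, Cxcl10, Il6 and Tnf, IPO animal 24 for Ccl2, Ccl3, Ccl4, Il1b, Tnf and Il10, and Sham animal 48 for 7 of the 10 genes (Cxcl1, Cxcl2, Cxcl10, Ccl2, Ccl3, Il1b and Il10). IPC animals 15, 18 and 19 had 7.02, 8.36 and 8.84 for Ccl2, against at most 6.51 in the other IPC animals. The labels give no day, batch or surgeon that could be set beside these animals. The array of IPC+IPO animal 38 had the lowest array spread of all, 1.498.

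Correlations were computed over the 48 animals with group means removed, for 45 pairs, with 100000 permutations within groups and adjustment over the pairs. Of the 45, 41 were above 0, and 10 passed an adjusted p of 0.05 by both Pearson's r and Spearman's rho, 9 of them positive and 1 negative. Cxcl1 and Cxcl10 had r = 0.753 and rho = 0.758 (adjusted permutation p = 0.00015 and 0.000112). Without the 2 animals farthest from the median r was 0.698, and within groups it was 0.899 in IPC, 0.596 in IPO, 0.759 in IPC+IPO, 0.676 in IRI and 0.58 in Sham. Cxcl1 and Cxcl2 had r = 0.743 and rho = 0.749 (adjusted permutation p = 0.00015 and 0.000112), with 0.699 without the 2 farthest animals and 0.942, 0.763, 0.587, 0.641 and 0.552 within the groups in the same order. The unadjusted p of both pairs was 1e-05, the smallest these permutations can give.

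Cxcl2 and Ccl2 had r = 0.678 and rho = 0.686 (adjusted permutation p = 0.00015 and 0.000112), with 0.683 without the 2 farthest animals and between 0.382 (Sham) and 0.897 (IPC) within groups. The other 3 pairs among Cxcl1, Cxcl2, Cxcl10 and Ccl2 had r between 0.607 and 0.656 (adjusted permutation p 0.000225 to 0.00103). Since IPC animals 15, 18 and 19 stood apart from the rest, r was computed again without them: over 45 animals it was 0.679 for Cxcl1 and Cxcl10, 0.665 for Cxcl1 and Cxcl2, 0.566 for Cxcl2 and Ccl2, and 0.376 for Cxcl10 and Ccl2, against 0.614 for the last pair with them. With array spread removed, r of Cxcl1 with Cxcl10 was 0.752 and with Cxcl2 0.743.

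**Figure D5:**
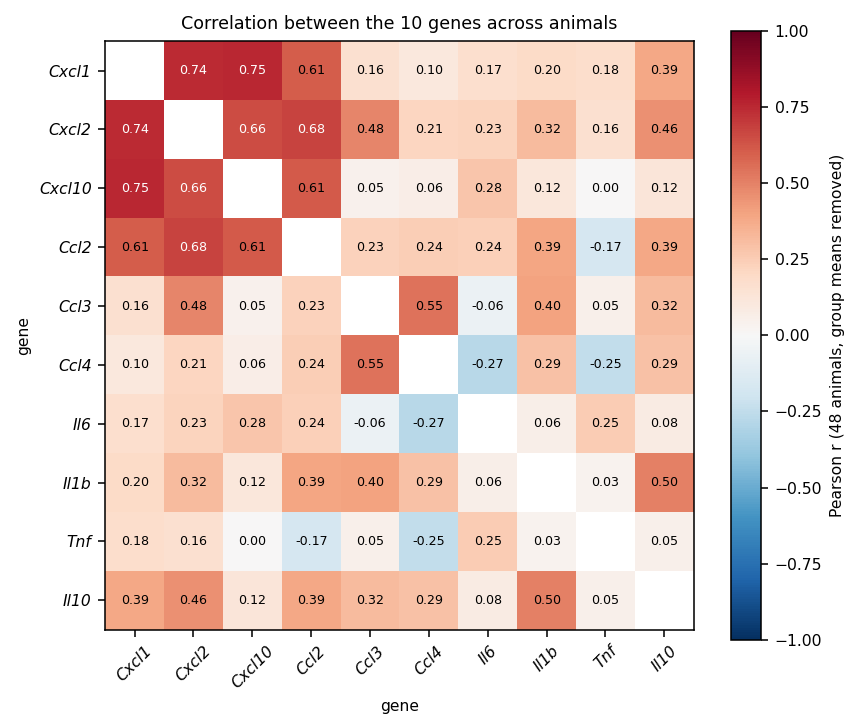
Pearson r between each pair of the 10 genes over 48 animals with group means removed, coloured by r. Cxcl1, Cxcl2, Cxcl10 and Ccl2 form a block with r between 0.61 and 0.75, and Tnf and Il6 have low values with most of the others.

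Outside this block, Ccl3 and Ccl4 had r = 0.545 (adjusted permutation p = 0.00394), but rho = 0.343 missed (adjusted permutation p = 0.0719), r without the 2 farthest animals was 0.366, and within groups it lay between -0.402 (IRI) and 0.813 (IPC+IPO). Il1b and Il10 had r = 0.503 and rho = 0.53 (adjusted permutation p = 0.0009 and 0.00135), with 0.55 without the 2 farthest animals and between 0.0873 (IPC+IPO) and 0.759 (IPO) within groups. Il10 also followed members of the block: it had r = 0.455 and rho = 0.519 with Cxcl2 (adjusted permutation p = 0.01 and 0.0048) and r = 0.385 and rho = 0.485 with Ccl2 (adjusted permutation p = 0.031 and 0.00712). Without the 2 farthest animals these r were 0.56 and 0.388, and within groups they lay between 0.135 (IRI) and 0.72 (IPO) for Cxcl2 and between -0.0439 (IPC+IPO) and 0.764 (IPO) for Ccl2. The negative pair was Ccl4 and Il6, with r = -0.274 and rho = -0.501 (adjusted permutation p = 0.031 and 0.00427), -0.351 without the 2 farthest animals and between -0.852 (Sham) and -0.0532 (IPO) within groups. With array spread removed its r was -0.133. Tnf and Cxcl1 had r = 0.177 and rho = 0.247 (adjusted permutation p = 0.395 and 0.226).

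Over the 48 arrays with group means removed, the genes most like Cxcl1 were Nfkbiz (r = 0.839), an inducible nuclear partner of NF-kB, Nfkbia (r = 0.766), the NF-kB inhibitor, and Cxcl10. Those most like Cxcl2 were the stress gene Gadd45b (r = 0.801), Cxcl1 and the stress transcription factor Atf3 (r = 0.695). Those most like Cxcl10 were Rnd1 (r = 0.848), Irf1 (r = 0.765), an interferon-induced transcription factor, and Cxcl1. Ccl2 was nearest to Anxa1 (r = 0.719), Gadd45b (r = 0.686) and Cxcl2. Ccl3 was nearest to Rgs1 (r = 0.739), Dnajb1 (r = 0.669) and Fos (r = 0.663), and Il1b to Cldn14 (r = 0.712), Pigx (r = 0.702) and Cox5b (r = 0.676). Il6 was nearest to the pancreatic genes Reg3b (r = 0.883), Reg1a (r = 0.882) and Zg16 (r = 0.877), all set by IPC animal 18, and without that array it was nearest to Ppp1r3a (r = 0.825). Tnf was nearest to Kcna1 (r = 0.814), Runx3 (r = 0.812) and Cyp2a3 (r = 0.808). These likenesses were not computed with array spread removed, which Tnf and Il6 followed at r = -0.709 and -0.33. Nor were they computed without IRI animal 7, the highest IRI animal for Tnf. The part of array spread in them was not tested.

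Among the receptors through which these signals act, the only ones called higher were Tnfrsf1a and Tnfrsf1b, the receptors of Tnf. Of 14 receptor genes measured, 2 rose in IPC against Sham, where 5.6% of all genes rose: Tnfrsf1a by 0.68 ± 0.21 (log2, adjusted p = 0.0401) and Tnfrsf1b by 0.61 ± 0.19 (adjusted p = 0.0434). In IPO against Sham, where 15.4% of all genes rose, these 2 receptors also rose, by 0.76 ± 0.21 (adjusted p = 0.0113) and 0.71 ± 0.19 (adjusted p = 0.01), and Cxcr1 fell by 0.33 on the log2 scale. Tnfrsf1a rose by 0.76 ± 0.21 in IPC+IPO against Sham (adjusted p = 0.0355), where 3.05% of all genes rose. Tnfrsf1b rose by 0.60 ± 0.18 in IPO against IRI (adjusted p = 0.0229), where 12.4% of all genes rose. In IPO the share of receptors that rose did not exceed that of all genes in either comparison. Without IPC animal 18 the count in IPC against Sham was 0, and with array spread as a covariate it was 0 in all 7 comparisons.

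Of 19 measured targets of NF-kB and cytokine signalling, 6 rose in IPC against Sham, 5 in IPO against Sham and 3 in IPC+IPO against Sham, and none fell. Of all genes 5.6%, 15.4% and 3.05% rose in these comparisons in that order. Zfp36, which destabilises Tnf and other cytokine transcripts, lay between 7.5 and 10.87 (median 9.63) in IPC, between 8.07 and 10.56 (median 9.08) in IPO, between 7.54 and 10.42 (median 9.72) in IPC+IPO, between 7.19 and 9.1 (median 7.94) in IRI and between 6.37 and 8.76 (median 7.01) in Sham. Its log2 difference from Sham was 2.12 ± 0.38 in IPC (adjusted p = 0.0011), 1.81 ± 0.38 in IPO (adjusted p = 0.00329) and 2.12 ± 0.38 in IPC+IPO (adjusted p = 0.00281), and it was 1.08 ± 0.36 in IPO against IRI (adjusted p = 0.0316). The others in IPC were Nfkbia (1.27 ± 0.27), Nfkbiz (1.17 ± 0.32), Socs3 (0.91 ± 0.20), a brake on Il6 signalling, Irf1 (0.89 ± 0.22) and Sod2 (0.49 ± 0.13). In IRI against Sham 0 of 19 passed (0.241% of all genes) with 3 at an unadjusted p under 0.05 (11.5% of all genes). Without IPC animal 18 the counts were again 6, 5 and 3, and with array spread as a covariate Nfkbia, Socs3 and Zfp36 passed in IPC, Zfp36 in IPC+IPO and none in IPO. In that fit Socs3 also passed as higher and Vcam1 as lower in IRI against Sham, where 5.89% of all genes passed.

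Of 13 other CXC, CX3C and XC chemokine ligands, Cxcl11 rose in IPC against Sham (0.82 ± 0.24, adjusted p = 0.0325), where 5.6% of all genes rose. Without IPC animal 18, 0 of 13 passed there. Cxcl9 rose in IPO against IRI (0.78 ± 0.25, adjusted p = 0.0282), where 12.4% of all genes rose. Cxcl9 and Cxcl11 share the receptor Cxcr3 with Cxcl10. Of 15 other CC ligands, Ccl24, an eosinophil attractant, rose in IPC+IPO (0.81 ± 0.21, adjusted p = 0.0262) and in IPO (0.55 ± 0.21, adjusted p = 0.0476) against Sham. Ccl27 fell in IPO against Sham (-0.51 ± 0.12, adjusted p = 0.00646), and Ccl11 (-0.37 ± 0.12) and Ccl22 (-0.28 ± 0.09) fell in IPO against IRI. Of all genes 3.05% rose in IPC+IPO against Sham. In either direction 23.2% passed in IPO against Sham and 22.8% in IPO against IRI. In IPO the share of these CXC and CC ligands that passed did not exceed that of all genes in either comparison. With array spread as a covariate none of these calls was made, and Ccl11 and Ccl24 passed as higher in IRI against Sham instead.

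Of 37 other cytokines, Il1rn, the natural antagonist of Il1 signalling, rose in IPC (0.76 ± 0.20, adjusted p = 0.0185) and in IPC+IPO (0.78 ± 0.20, adjusted p = 0.0256) against Sham, and Mif rose in IPC (0.68 ± 0.20, adjusted p = 0.0321). Il1a and the alarmin Il33 rose in IPO (1.0 ± 0.29 and 1.0 ± 0.24, adjusted p = 0.0139 and 0.00606) and in IPC+IPO (0.98 ± 0.29 and 0.82 ± 0.24, adjusted p = 0.0427 and 0.0424) against Sham. Of the 37, 2 rose in IPC and 3 in IPC+IPO against Sham, where 5.6% and 3.05% of all genes rose. In IPO 5 of the 37 rose and 5 fell against Sham, and 5 rose and 4 fell against IRI, where 23.2% and 22.8% of all genes passed in either direction. With array spread as a covariate 0 of 37 passed in any of the 7 comparisons, and without IPC animal 18 Tnfsf4 was no longer called against Sham nor Il18 against IRI. Those that rose against IRI were Tnfsf13 (0.59 ± 0.12), Il1a (0.76 ± 0.27), Il33 (0.66 ± 0.23), Csf1 (0.41 ± 0.13) and Il18 (0.33 ± 0.13), and those that fell were Lta, the relative of Tnf (-0.54 ± 0.14), Tnfsf9 (-0.32 ± 0.09), Csf2 (-0.30 ± 0.10) and Tnfsf11 (-0.27 ± 0.09). Against Sham the other genes that rose in IPO were Tnfsf13 (0.61 ± 0.13), Csf1 (0.60 ± 0.14) and Mif (0.69 ± 0.20), and those that fell were Tnfsf4 (-0.32 ± 0.12), Tnfsf9 (-0.32 ± 0.09), Il12b (-0.31 ± 0.11), Tnfsf11 (-0.27 ± 0.10) and Il5 (-0.26 ± 0.10).

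Marker genes of leukocytes were set beside these values. The mean of 14 neutrophil markers lay between 4.83 and 5.22 in IPC, between 4.81 and 5.26 in IPO, between 4.86 and 5.69 in IPC+IPO, between 4.9 and 5.48 in IRI and between 4.74 and 5.24 in Sham. The groups overlapped, and 0 of 14 passed in IPC, IPC+IPO or IRI against Sham (1, 3 and 0 at an unadjusted p under 0.05), whereas in IPO against Sham S100a8 rose (0.80 ± 0.29) and Elane (-0.26 ± 0.09) and Cxcr1 (-0.33 ± 0.12) fell. Of all genes 6.58%, 3.62% and 0.241% passed in IPC, IPC+IPO and IRI against Sham, and 23.2% passed in IPO against Sham, in either direction. The mean of 13 Kupffer cell and macrophage markers lay between 7.44 and 8.12 (median 7.89) in IPC, between 6.95 and 8.23 (median 7.8) in IPO, between 7.06 and 8.33 (median 8.05) in IPC+IPO, between 6.69 and 7.96 (median 7.54) in IRI and between 7.02 and 8.14 (median 7.55) in Sham. Single macrophage markers rose against Sham: C1qb in IPC (0.53 ± 0.15), Cd5l in IPO (0.75 ± 0.25) and Vsig4 in IPC+IPO (0.82 ± 0.24). Beside them 5.6%, 15.4% and 3.05% of all genes rose in these comparisons in that order. Against IRI, 2 of the 13, Cd5l (0.79 ± 0.24) and Cd68 (0.60 ± 0.21), rose in IPO, where 12.4% of all genes rose. In IPC, in IPO and also in IPC+IPO 12 of 13 macrophage markers lay above 0 against IRI, beside 47.1%, 45.9% and 46.2% of all genes. Their medians were 0.39, 0.28 and 0.35 in that order. The neutrophil markers went the other way: 2, 2 and 3 of 14 lay above 0 against IRI in these groups in that order. Their medians were -0.12, -0.16 and -0.13. Elane (-0.37 ± 0.09) and Itgam (-0.31 ± 0.11) fell in IPO against IRI, where 22.8% of all genes passed in either direction. Of 13 lymphocyte markers 0 passed in any of the 7 comparisons, with at most 2 at an unadjusted p under 0.05. The share of all genes that passed in these 7 lay between 0% (IPC+IPO against IRI) and 23.2% (IPO against Sham). Among 11 stellate and mesenchymal markers Pdgfra fell in IRI against Sham (-0.46 ± 0.10, adjusted p = 0.0374), Pdgfrb rose in IPO against Sham (0.50 ± 0.18) and against IRI (0.53 ± 0.17), and Lrat rose in IPO against Sham (0.67 ± 0.24). Only 4 of these 11 lay above 0 in IPO against Sham, with a median of -0.22. With array spread as a covariate 0% of all genes passed in IPO against Sham, so no marker was called there, and 0.0138% passed in IPO against IRI. The part of cell numbers in the chemokine values was not tested.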

How the data were processed

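RNA of liver biopsies from 48 rats was hybridised to Affymetrix arrays, and the authors deposited log2 expression values for each probe set, made with RMA (background correction, quantile normalization and probe summary) in Affymetrix Expression Console, per the submitters' processing notes. Versions, hybridization days and batches are not given in the sources used here. Of 29215 probe sets, 15310 had exactly 1 symbol in the platform annotation, 323 had several and 13582 had none here, and the probe set of highest mean was used for each of 14506 genes, without a filter on dim genes. Groups come from the sample titles. limma 3.58.1 in R 4.3.3 (lmFit and eBayes, two-sided) fitted all 5 groups together, and p-values were adjusted after Benjamini and Hochberg across all genes, with 0.05 as the threshold and 95% confidence intervals. The 7 comparisons with Sham or IRI were the main ones, and the remaining pairs of groups and the interaction were also tested.

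All 10 genes are named. Of other lists, genes past the threshold in a main comparison were eligible to be named, otherwise the 2 of smallest p, and the 3 genes most like each of the 10 where the highest r was over 0.7. The 10 genes and the lists were chosen with earlier results of these data known. The list of pancreas genes, and the fits without IPC animal 18, IRI animal 7 or IPC animals 15, 18 and 19, were chosen after their values were seen. Correlations were tested with 100000 permutations of animals within groups. Each result was computed again with array weights, with a trended and robust variance, with only the compared groups in the fit, with quantile normalization renewed or medians centred, with array spread as a covariate, without the dimmest 33.3% of genes, with every probe set or with the most variable one, and without each array in turn. In a test on simulated data (14506 genes, of which 200 were changed), the fit recovered 68% of 1.5-fold and 96% of 2-fold changes for IRI against Sham. For IPO against IRI it recovered 75.5% and 98%. The changed genes were drawn at random, so these rates describe a gene of typical within-group SD (median 0.27). They do not apply to Cxcl1, Cxcl10, Cxcl2 and Ccl2, whose SD was 1.22, 1.06, 0.89 and 0.78, nor to Ccl3 and Il10, with 0.56 and 0.51. The noise was drawn separately for each gene and array, so that differences in array spread were not simulated. Promoter sequences are those of RefSeq (GRCr8). Python 3.11.15, scipy 1.17.1 and matplotlib 3.10.9 were used.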

Additional observations from a re-analysis of the deposited data

Results flagged for a closer look

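Among the 50 sets of values of 1 gene in 1 group, 5 held an animal that lay far from the others of its group by Dixon's ratio at the 95% level. By chance alone this test marks about 1 set in 20. Cxcl1 was 8.08 in Sham animal 48, against 7.07 in the next Sham animal. Ccl2 was 6.85 in the same animal, against 6.03 in the next. Sham animal 48 also held the highest Sham values of Cxcl2, Cxcl10, Ccl3, Il1b and Il10. Il6 was 5.43 in IPC animal 18, against 4.19 in the next IPC animal, and that array also held the pancreatic transcripts. Il6 was 4.08 in IPC+IPO animal 38, against 3.6 in the next animal of that group, and animal 38 was also highest in Cxcl1, Cxcl2, Cxcl10 and Tnf. Its array had the lowest array spread of all, 1.498, and a mean correlation with the other arrays of 0.933. Within IPC+IPO, r with array spread was -0.797 for Il6 and -0.85 for Tnf. Tnf was 5.47 in IPO animal 24, against 5.2 in the next IPO animal, and animal 24 was also highest in Ccl2, Ccl3, Ccl4, Il1b and Il10. No cause of these values was tested.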

How the results depend on the processing

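The number of the 10 genes that passed moved with the processing, while no gene that passed in the reported fit changed direction. Array spread as a covariate gave 0 in IPO against IRI (1 in the reported fit), 1 in IPC against Sham (3), 0 in IPO against Sham (4) and 0 in IPC+IPO against Sham (1). That fit called 0.0138%, 1.9%, 0% and 0.234% of all genes in these comparisons in that order. Fitting only the groups compared gave 2, 7 and 0 in IPO against IRI, IPO against Sham and IPC+IPO against Sham. These fits called 21.2%, 37.6% and 0.0827% of all genes in that order. Il6 in IPO against IRI and Tnf in IPO against Sham were among the calls, both as lower. Array weights gave 6 in IPC against Sham, Tnf among them as lower, and 6 in IPC+IPO against Sham, in fits that called 48.6% and 62.1% of all genes (6.58% and 3.62% in the reported fit). A trended and robust variance gave 1 in IPC against Sham (5.84% of all genes) and 0 in IPC+IPO against Sham (3.27%). Renewed quantile normalization gave 0 in IPO against IRI (8.89% of all genes) and 0 in IPC+IPO against Sham (2.24%). All probe sets gave 1 in IPC against Sham. Without IPC animal 18 and IRI animal 7 the counts were 1 in IPC against Sham (5.89% of all genes) and 0 in IPO against IRI (2.01%). Over the fits that left out each array in turn, the counts were 0 to 0 in IRI against Sham, IPC against IRI and IPC+IPO against IRI, 0 to 2 in IPO against IRI, 1 to 5 in IPC against Sham, 4 to 5 in IPO against Sham and 0 to 2 in IPC+IPO against Sham. The 5 in IPC against Sham came without Sham animal 48 and added Cxcl2 and Ccl2. The cause of these changes was not tested. Cxcl1 in IPC against Sham passed in every alternative run. No paired analysis was possible because each animal number occurs in a single group. Il6 and Il10 were the dimmest of the 10, above 6.3% and 20.7% of all genes.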
